A study of Mus musculus with 3 samples.

Results

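Broad domains of trimethylated histone H3 lysine 27 (H3K27me3) were examined in mouse embryonic stem cells (ESCs), pluripotent cells derived from the early embryo. The domains were obtained by joining the enriched H3K27me3 regions across gaps of up to 1 kb and keeping every joined stretch of 5000 bp or more. This left 518 broad domains out of 8348 joined domains, beside 2985 joined domains of 1 to 5 kb and 4845 of under 1 kb. The broad domains summed to 5005350 bp, or 0.190% of the 19 autosomes and chromosome X. They were chosen by the length of the H3K27me3 enrichment, so their lengths and H3K27me3 content are given as description only, whereas the H2A.Z regions inside them come from libraries that took no part in the choice.

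The series holds 3 ChIP-Seq libraries, 1 per group, from cells labelled as ESCs of the V6.5 strain (129SvJaexC57BL/6). H2A.Z WT is wild-type H2A.Z and H2A.Z AP3 is H2A.Z whose acidic patch carries the G92N, D97N and S98K substitutions, numbered along H2A.Z as in the labels, which put H2A residues in their place. Each was fused to YFP, expressed from a lentiviral, doxycycline-inducible CMV promoter in KH2 ESCs, and precipitated with a GFP antibody after induction with 1 µg/ml doxycycline and sorting of YFP-positive cells. In both transgenic lines the endogenous H2A.Z was depleted with hairpins against its 3′ UTR, so both H2A.Z libraries describe tagged protein made from a transgene in selected cells. The H3K27me3 library is labelled WT and no transgene is named for it, so the domains were measured in other cells than the H2A.Z regions inside them. Its antibody is given as a Millipore product in the labels and as a Cell Signaling product in the study's methods, and the strain label is the same for all libraries although the transgenic lines were made in KH2 cells. With 1 library per group there was no replicate spread and no test between groups was possible. All intervals below are 95% Wilson intervals that cover counting error and treat domains or regions as independent. Read depth, region height and p-values were unknown, since the files give only where each region starts and ends. No marker of the cell type itself was measured.

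H3K27me3 is deposited by Polycomb repressive complex PRC2 and is bound by PRC1, and the mark lies over the CpG-rich promoters of developmental regulators that are silent or poised in ESCs. Most of these promoters hold a short marked stretch, while some loci, the Hox clusters among them, carry the mark over many kilobases. H2A.Z is a variant of histone H2A that replaces H2A in nucleosomes around promoters and other regulatory elements, and its acidic patch is a negatively charged surface of the nucleosome that chromatin proteins contact. The comparison asks where H2A.Z with an intact and with a changed acidic patch was detected inside long stretches of Polycomb chromatin.

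Sequence from the longest domains shows the CpG-dense stretches in which H2A.Z WT was called, and sequence from the longest domains without any H2A.Z WT region shows what was marked by H3K27me3 there. Each is the 150-base window with the most CpG dinucleotides in an H2A.Z WT region of the domain, or in an H3K27me3 region where the domain held no H2A.Z WT region, and none overlaps an annotated exon. CpG dinucleotides are in capitals, and the plus strand of the mm9 assembly is printed 5′ to 3′.
HoxB domain, chr11:96194452-96194601, in an intron of Hoxb3, 17 CpG: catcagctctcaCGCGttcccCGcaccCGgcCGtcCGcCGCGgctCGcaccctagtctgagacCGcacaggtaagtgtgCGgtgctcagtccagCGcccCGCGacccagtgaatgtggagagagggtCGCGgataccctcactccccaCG
HoxC domain, chr15:102773512-102773661, between genes, 17 CpG: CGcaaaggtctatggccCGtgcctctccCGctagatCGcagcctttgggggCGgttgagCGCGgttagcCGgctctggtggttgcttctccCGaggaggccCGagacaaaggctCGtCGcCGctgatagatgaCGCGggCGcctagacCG
HoxA domain, chr6:52158722-52158871, directly upstream of a Hoxa6 start, within introns of Hoxa3, of a longer Hoxa6 transcript and of the lincRNA 2700086A05Rik, 20 CpG: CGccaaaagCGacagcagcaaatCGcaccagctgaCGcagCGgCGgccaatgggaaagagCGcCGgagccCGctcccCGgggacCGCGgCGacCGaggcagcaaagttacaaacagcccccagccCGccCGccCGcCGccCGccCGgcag
Domain far from genes and without H2A.Z WT, chr2:116374348-116374497, between genes, 2 CpG: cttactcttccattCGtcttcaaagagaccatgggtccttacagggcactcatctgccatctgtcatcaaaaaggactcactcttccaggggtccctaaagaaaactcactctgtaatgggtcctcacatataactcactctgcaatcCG
Lats2 domain without H2A.Z WT, chr14:58364221-58364370, in an intron of Lats2, 23 CpG: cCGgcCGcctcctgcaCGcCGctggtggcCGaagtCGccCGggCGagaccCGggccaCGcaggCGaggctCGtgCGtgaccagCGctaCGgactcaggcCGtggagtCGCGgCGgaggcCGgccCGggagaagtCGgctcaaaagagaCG
Bmi1 domain without H2A.Z WT, chr2:18599470-18599619, in an intron of Bmi1, 10 CpG: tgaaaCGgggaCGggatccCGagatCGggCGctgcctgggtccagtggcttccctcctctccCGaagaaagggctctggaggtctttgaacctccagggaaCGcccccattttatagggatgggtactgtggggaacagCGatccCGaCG
The windows of the Hox domains held 17 to 20 CpG and that of the domain far from genes only 2. The Lats2 window was the densest of the 6 with 23 CpG, although no H2A.Z WT was called anywhere in its domain. The Hox windows were sought in H2A.Z WT regions and the others in H3K27me3 regions, so the counts do not rank the domains.

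The domains ran from 5000 to 106925 bp with a median of 7162.5 bp. Of the 518, 282 were of 5 to 7.5 kb, 85 of 7.5 to 10 kb, 121 of 10 to 20 kb and 30 of 20 kb or more. A median of 6 H3K27me3 regions made up a domain, and only 2 domains were a single unbroken region. Called H3K27me3 filled 23.6% to 100% of each domain, with a median of 72.9%, and the joined gaps made up 26.6% of all domain sequence. At the length limit 6 members were of exactly 5000 bp, and those at Otop1, Prkag2 and Scn8a had 25.5%, 42.5% and 21.0% of their sequence covered by H2A.Z WT. Just outside it were 6 domains of 4975 bp, of which those at Cxcl14, Kcnk9 and Car15 had 39.2%, 36.2% and 19.6%. The domains on either side of the limit thus overlapped in H2A.Z content.

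Most broad domains held the start of at least 1 protein-coding gene. A protein-coding start lay in 398 of the 518 (76.8%, 73.0 to 80.3), against 20.2% of joined domains of every length and 39.4% of those of 1 to 5 kb, a comparison in which the longer domain has more room for a start. In all, 450 protein-coding genes, 2.01% of the 22342 annotated, had a start in a broad domain. A single gene had its start in 366 domains, 26 domains held 2 genes and 6 held 3 or more, which were 5 Hox domains and the Gata3 domain. Of the 120 domains with no coding start, 16 held a noncoding start, 58 overlapped the body of a coding gene and 51 had a coding start within 5 kb, while 50 held neither a gene body nor a noncoding start. Several of the longest domains without a coding start lay near a known regulator. The domain near Nr2f2, which encodes the nuclear receptor COUP-TFII, was 25400 bp long and ended 7179 bp from the nearest Nr2f2 start. A domain of 24950 bp held 2 noncoding starts and lay 28003 bp from the nearest coding start, that of Polg. A domain of 23150 bp lay 4280 bp from Hoxb13, one of 21275 bp lay 618 bp from Cbx8, and one of 17750 bp lay 1695 bp from Nkx2-1.

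Among the gene lists, the hedgehog, Hox, Gata and Pax lists were held most often. Of 39 Hox genes, which set position along the body axis, 36 had a start in a broad domain, and so did 76 of 109 other homeobox genes, among them Lhx2, Nkx2-3, Six3 and Dlx1. The share was 7 of 9 for Pax genes, 5 of 6 for Gata genes, 15 of 43 for lineage bHLH genes such as Hand2 and Neurod2, 14 of 43 for forkhead genes, 6 of 18 for Sox genes and 4 of 17 for T-box genes. Among secreted signals, all 3 hedgehog ligands and 12 of 19 Wnt ligands had a start in a broad domain. The counts were lower for Fgf genes, with 3 of 22, and for Bmp and Gdf genes, with 3 of 21. Zic, Gli and Sall genes had 3 of 15. Fgf genes lay in joined H3K27me3 domains of some length in 11 of 22 cases and potassium channel genes in 35 of 80. The share of all genes in such domains is not given here. In a broad domain were 6 of the 80 potassium channel genes and 4 of 60 axon guidance genes. None of 20 pluripotency genes and none of 15 housekeeping genes had a start in one, although 2 pluripotency genes lay in a joined domain of some length. At the 2.01% of all protein-coding genes, lists this short would often hold none. Of 27 genes for Polycomb subunits, Bmi1 and Cbx8, both subunits of PRC1, had a start in a broad domain. Even the lowest share of a list with a gene in a broad domain, 6.67% for axon guidance, was above the 2.01% of all protein-coding genes. Genes of the developmental lists were in 164 of the 518 domains and in 24 of the 30 domains of 20 kb or more.

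**Figure D1:**
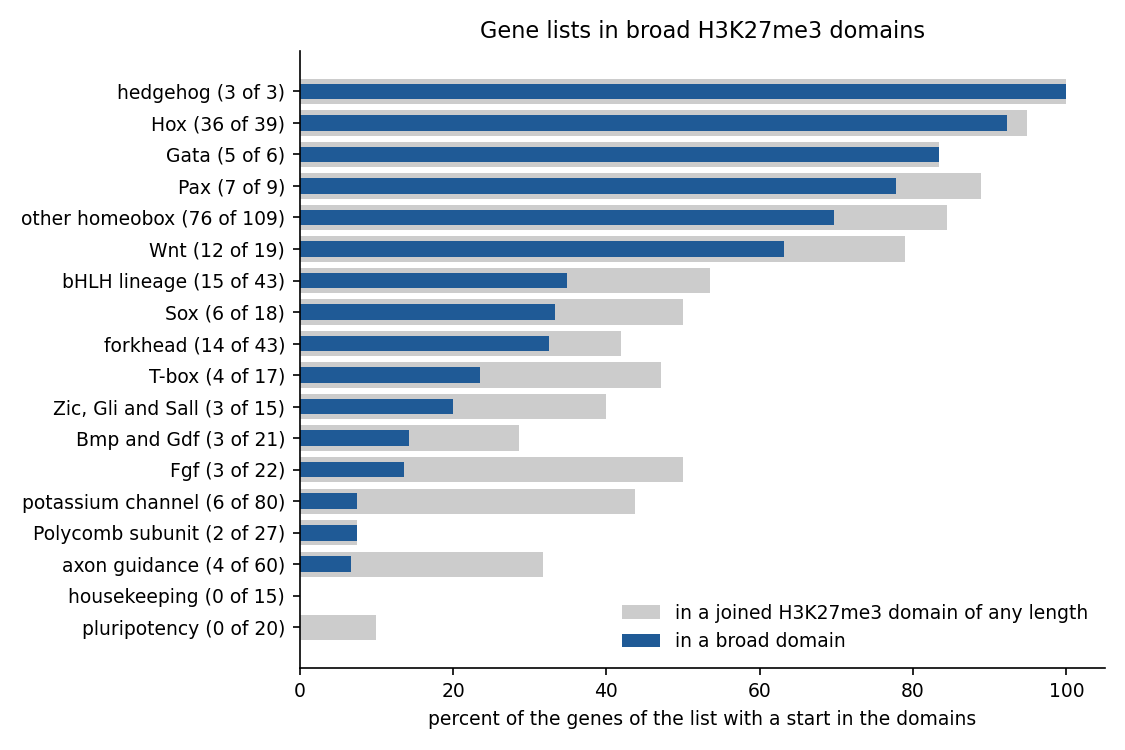
Percent of the genes of each list (horizontal axis) with a protein-coding start in a broad domain (blue) and in a joined H3K27me3 domain of any length (grey), with counts beside the list names. Hedgehog, Hox, Gata and Pax genes stand highest. The pluripotency and housekeeping lists have no gene in a broad domain, as lists of 20 and 15 genes often would at the 2.01% of all protein-coding genes.

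Nearly every broad domain held H2A.Z WT. At least 1 H2A.Z WT region was centred in 512 of the 518 domains (98.8%, 97.5 to 99.5), against 37.4% of joined domains of every length, 72.4% of those of 1 to 5 kb and 9.35% of those under 1 kb. Here too the longer domain has more room. Per kb of domain there were 0.354 H2A.Z WT regions, against 0.427 at 1 to 5 kb and 0.362 under 1 kb. A domain held a median of 3 H2A.Z WT regions and at most 25, and 125 domains held 5 or more. These regions were short islands within the marked stretch. There were 1770 in all, typically of 475 bp (median) and reaching 3500 bp, and they covered 21.5% of the domain sequence. Domains of 1 to 5 kb were covered to 30.5%, so a broad domain was more often occupied but less densely. Within the broad domains the covered share went down with length. It was 25.1% in domains of 5 to 7.5 kb, 22.7% in those of 7.5 to 10 kb, 21.0% in those of 10 to 20 kb and 14.8% in those of 20 kb or more. The number of H2A.Z WT regions rose with length (Spearman's rho 0.69 over the 518 domains) while the covered share did not (rho -0.21), a description over domains that share 3 libraries.

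H2A.Z AP3 was found in about as many broad domains as it was missing from. It was centred in 257 of 518 (49.6%, 45.3 to 53.9), against 15.6% of joined domains of every length, 28.9% of those of 1 to 5 kb and 3.72% of those under 1 kb. A longer domain has more room for a region, and per kb the broad domains had 0.0845 H2A.Z AP3 regions. Domains of 1 to 5 kb had 0.145 per kb and those under 1 kb 0.144. No broad domain held an H2A.Z AP3 region without an H2A.Z WT region, but only the 6 domains without H2A.Z WT could have done so. Those 6 held neither. The 423 H2A.Z AP3 regions were shorter, at 175 bp (median) and up to 2925 bp, and covered 1.98% of the domain sequence, against 4.29% in domains of 1 to 5 kb. Of the domains, 154 held 1 H2A.Z AP3 region, 73 held 2 and 30 held 3 or more. Of the 423 regions, 399 overlapped an H2A.Z WT region (94.3%, 91.7 to 96.2), against 73% over the whole H2A.Z AP3 list, 95.97% (94.6 to 97.0) in domains of 1 to 5 kb and 87.1% in those under 1 kb. The H2A.Z AP3 list is far smaller than the H2A.Z WT list, with 14599 regions over 3502925 bp against 78359 over 28279525 bp, and lower occupancy and a shallower library cannot be told apart in lists of regions.

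**Figure D2:**
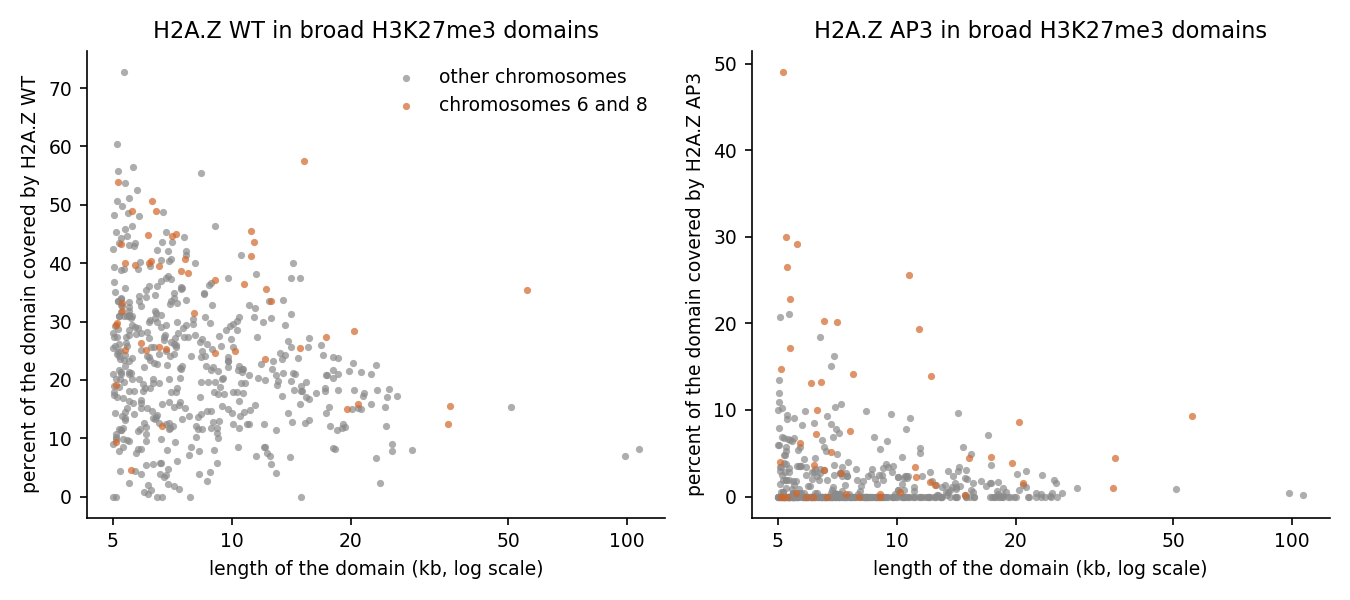
Each point is 1 of the 518 broad domains, with its length on a log axis and the percent of its sequence covered by H2A.Z WT (left) or H2A.Z AP3 (right); domains of chromosomes 6 and 8 are in orange. H2A.Z WT reaches 72.8% in the shorter domains and is at 8.16% and 7.03% in the 2 longest, and H2A.Z AP3 is at 0 in many domains and reaches 49.0% in 1 domain of chromosome 6.

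Domains with more H2A.Z WT bases held H2A.Z AP3 more often. Longer domains held more H2A.Z WT regions (Spearman's rho 0.69), and neither length nor the number of regions was held fixed in this comparison. H2A.Z AP3 was centred in 26 of 106 domains with under 1 kb of H2A.Z WT (24.5%, 17.3 to 33.5), in 74 of 176 with 1 to 2 kb (42.0%, 35.0 to 49.4), in 82 of 140 with 2 to 3 kb (58.6%, 50.3 to 66.4) and in 75 of 96 with 3 kb or more (78.1%, 68.9 to 85.2). The 4 intervals do not overlap, and the order was the same without chromosomes 6 and 8, from 23.5% to 73.7%, where the intervals of the upper 3 classes touch at their edges. The amount did not rise in the same way: H2A.Z AP3 bases came to 8.59%, 7.49%, 9.41% and 10.3% of the H2A.Z WT bases in these classes, and to 8.58%, 6.03%, 7.02% and 6.53% without chromosomes 6 and 8.

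Both forms of H2A.Z were placed towards the middle of the domains. Of the H2A.Z WT regions, 1029 of 1770 were centred in the inner 50% of their domain (58.1%, 55.8 to 60.4), and of the H2A.Z AP3 regions 263 of 423 (62.2%, 57.5 to 66.7), where an even spread would give 50%. Domains of 1 to 5 kb had similar shares, 61.9% (60.2 to 63.7) and 62.7% (59.7 to 65.6). In the 151 domains of 10 kb or more the shares were 52.5% (49.2 to 55.8) and 56.4% (49.2 to 63.3), with intervals that include 50%. H2A.Z WT covered 26.8% of the inner and 16.1% of the outer sequence, and H2A.Z AP3 2.51% and 1.45%. In 20 equal steps along the domain, H2A.Z WT coverage was 9.96% in the first step, 29.4% in the tenth and 9.80% in the last. H2A.Z AP3 was at 0.554%, 2.63% and 0.798% in the same steps. CpG density followed the same course, with 18.4 CpG per kb in the first step, 40.9 in the tenth and 18.7 in the last, and its part in the placing was not tested. The domain end was not a peak for either form. H2A.Z WT covered 6.24% of the last 250 bp outside, 10.0% of the first 250 bp inside and 32.8% of the stretch 2250 to 2500 bp inside, while farther outside, up to 5 kb away, it covered 3.75% to 5.63%. Of the 366 domains with a single gene, 297 had at least 1 of its starts in the inner 50% (81.1%, 76.8 to 84.8). This is not a share of all starts. A gene with several starts meets it more easily, so 50% is not its value for an even spread.

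**Figure D3:**
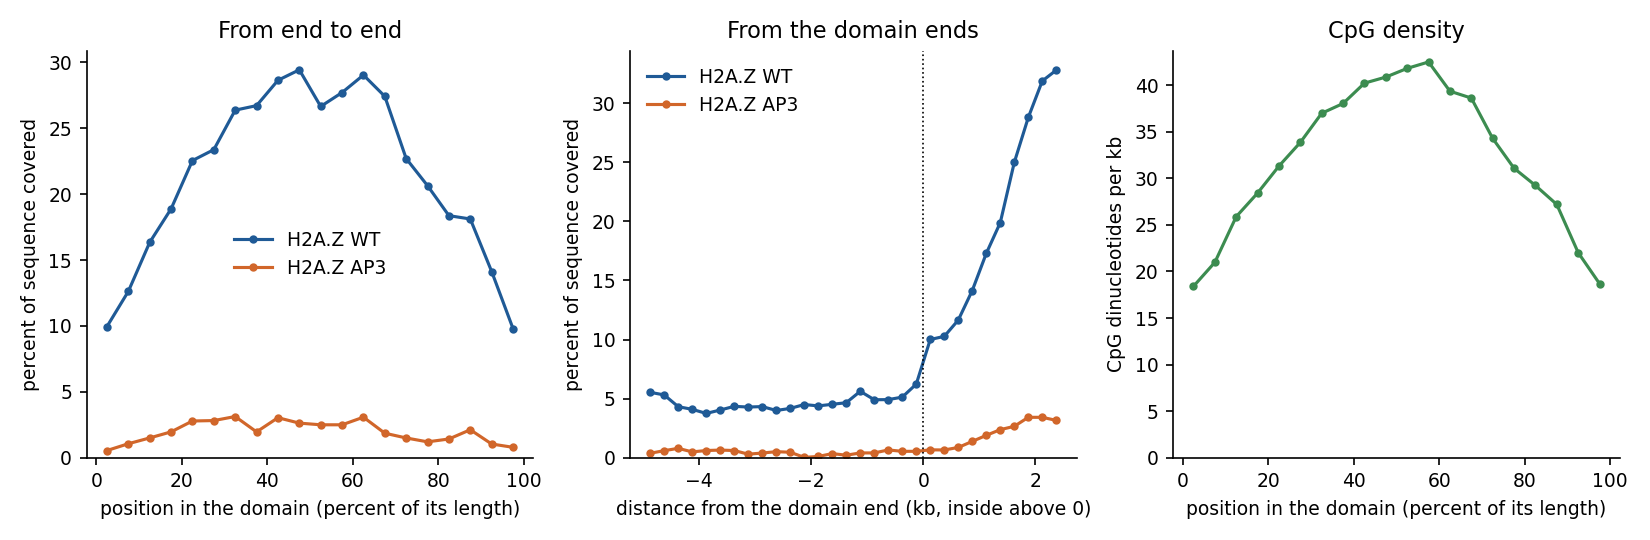
Percent of broad-domain sequence covered by H2A.Z WT (blue) and H2A.Z AP3 (orange) along the domain scaled to its length in 20 steps (left) and by distance from either domain end in kb (middle, dotted line at the end), with CpG dinucleotides per kb along the scaled domain (right). H2A.Z WT goes from 9.96% at the first step to 29.4% at the tenth, in parallel with CpG density.

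Away from gene starts the placing was weaker and still present. In sequence more than 1 kb from any protein-coding start, H2A.Z WT covered 19.5% of the inner and 13.4% of the outer part, and H2A.Z AP3 1.60% and 1.20%. Starts carried the densest H2A.Z, with 40.1% of the sequence within 1 kb of a start covered by H2A.Z WT and 4.07% by H2A.Z AP3, against 16.1% and 1.38% elsewhere in the domains. Sequence within 1 kb of a start made up 22.3% of the broad domains and 37.3% of domains of 1 to 5 kb. In broad domains it held 41.6% of the H2A.Z WT bases and 45.9% of the H2A.Z AP3 bases, and in domains of 1 to 5 kb 58.9% and 60.9%. Most H2A.Z of the broad domains thus lay away from starts, while relative to the sequence available it was concentrated at starts in both length classes. By region, 672 of 1770 H2A.Z WT regions were centred within 1 kb of a start (38.0%, 35.7 to 40.3), against 57.2% (55.4 to 59.0) in domains of 1 to 5 kb, and 187 of 423 H2A.Z AP3 regions (44.2%, 39.5 to 49.0), against 63.6% (60.6 to 66.5). These intervals do not overlap between the length classes for either form, which differ in the sequence near starts as well.

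Around the starts inside broad domains H2A.Z WT was highest downstream. The 798 start positions include several for some genes. H2A.Z WT covered 40.03% of the 100 bp just upstream, 56.2% at 300 to 400 bp downstream and 42.0% at 900 to 1000 bp downstream. H2A.Z AP3 was at 3.37%, 5.71% and 3.74% in the same windows. H3K27me3 itself was lowest at the start, with 52.2% at 100 to 200 bp upstream and 80.2% at 800 to 900 bp downstream. At starts in domains under 5 kb, H2A.Z WT was also highest downstream, with 68.2% at 200 to 300 bp. Starts in no H3K27me3 domain had their highest value, 31.3%, at 100 to 200 bp downstream. The downstream placing was thus not particular to broad domains. In the 366 domains with a single gene, with the start nearest the middle of the domain standing for a gene with several, 222 extended farther downstream of the start than upstream (60.7%, 55.6 to 65.5), by a median of 4217 bp against 3316.5 bp. H2A.Z WT covered 26.0% of the downstream and 18.9% of the upstream side, H2A.Z AP3 2.31% and 1.32%, and the downstream side had 36.7 CpG per kb against 29.7.

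H2A.Z lay on the H3K27me3 regions more than in the gaps between them. H2A.Z WT covered 25.1% of the called H3K27me3 sequence of the domains and 11.4% of the joined gaps, and H2A.Z AP3 2.34% and 0.990%. The gaps were no poorer in CpG, with 33.2 CpG per kb against 31.6. More than 1 kb from starts, the gaps were covered to 7.08% by H2A.Z WT and the marked sequence to 19.4%, at 22.1 and 27.1 CpG per kb. Domains of 1 to 5 kb showed a smaller contrast, with 34.3% of marked sequence and 23.3% of gaps under H2A.Z WT. Whether reads can be placed in the gaps was not tested, since no mappability track was used here.

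H2A.Z-covered sequence was richer in CpG than the rest of the domains. Sequence under H2A.Z WT had 63.1 CpG per kb and the rest of the broad domains 23.5. Where H2A.Z AP3 was called as well the density was 68.9 CpG per kb, and under H2A.Z WT alone 62.6. In 500-bp tiles of the broad domains, H2A.Z WT covered 0.393% of tiles with 0 to 4 CpG, 2.88% of those with 5 to 9, 16.8% of those with 10 to 19, 46.9% of those with 20 to 29 and 62.6% of those with 30 or more. Tiles of the same CpG class in domains of 1 to 5 kb were covered to 1.79%, 6.59%, 29.4%, 63.7% and 70.4%, so the lower H2A.Z WT coverage of broad domains was there in each of the 5 classes. Between domains, CpG density and the share covered by H2A.Z WT had a Spearman's rho of 0.52, and CpG density and the share covered by H2A.Z AP3 one of 0.16, both over 518 domains and as a description.

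**Figure D4:**
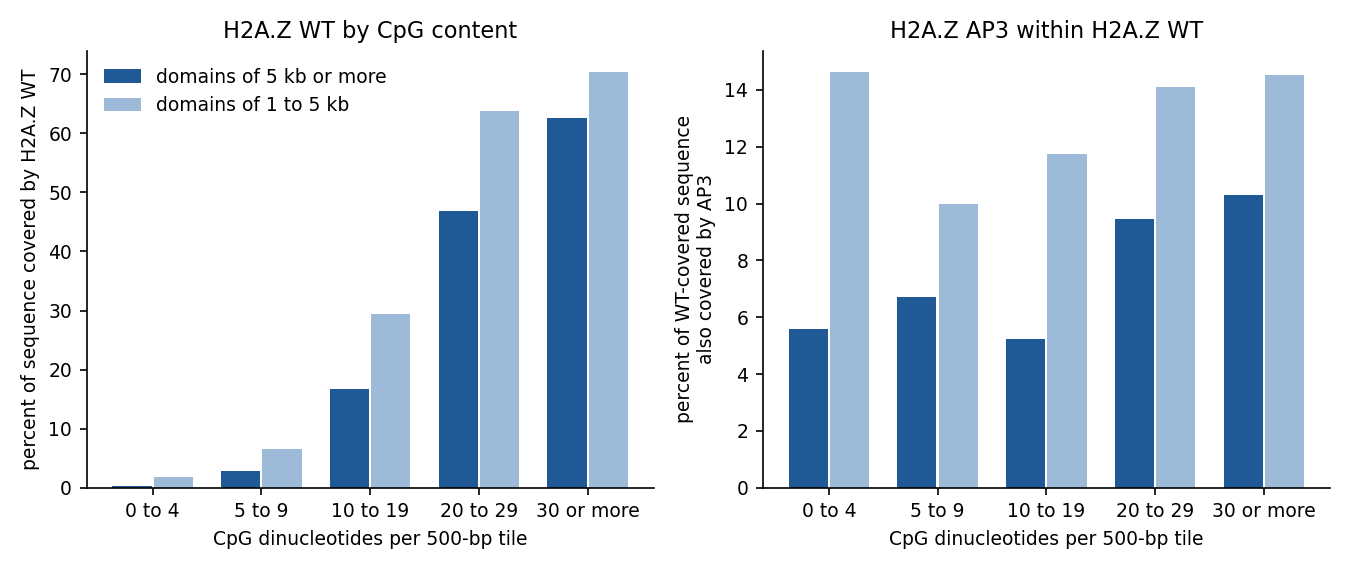
Bars give, by the number of CpG dinucleotides per 500-bp tile, the percent of sequence covered by H2A.Z WT (left) and the percent of H2A.Z WT-covered sequence that H2A.Z AP3 also covers (right), for broad domains (dark) and domains of 1 to 5 kb (light). The dark bar is the lower one in all 5 CpG classes of both panels, for example 62.6% against 70.4% and 10.3% against 14.5% in the tiles with 30 or more.

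H2A.Z AP3 took a smaller part of the H2A.Z WT sequence in broad than in shorter domains. Of the bases under H2A.Z WT, 8.87% were also under H2A.Z AP3 in broad domains and 13.4% in domains of 1 to 5 kb. As a percent of H2A.Z WT bases, H2A.Z AP3 bases did not fall steadily with length within broad domains. They came to 11.2% at 5 to 7.5 kb, 5.66% at 7.5 to 10 kb, 8.10% at 10 to 20 kb and 10.2% at 20 kb or more. Without chromosomes 6 and 8 these values were 8.23%, 5.08%, 6.16% and 5.01%. By region, 350 of 1770 H2A.Z WT regions of broad domains overlapped H2A.Z AP3 (19.8%, 17.98 to 21.7), against 28.4% (26.8 to 30.1) in domains of 1 to 5 kb and 12.9% of all H2A.Z WT regions of the genome, which are shorter, with a median of 250 bp. Since a longer region is more easily overlapped, the regions were split by length. Among H2A.Z WT regions of 500 to 1000 bp, 23.5% (20.2 to 27.3) overlapped H2A.Z AP3 in broad domains and 31.5% (28.7 to 34.6) in domains of 1 to 5 kb. For regions of 250 to 500 bp the shares were 13.1% (10.3 to 16.6) and 17.9% (15.1 to 21.0), for regions of 1000 bp or more 47.1% (41.7 to 52.5) and 50.2% (46.8 to 53.7), and for those under 250 bp 2.20% (1.20 to 4.00) and 4.63% (3.20 to 6.65). The share was lower in broad domains in all 4 length classes, but only at 500 to 1000 bp were the intervals apart. By CpG class, H2A.Z AP3 covered 5.23% to 10.3% of the H2A.Z WT bases in broad domains and 9.98% to 14.6% in domains of 1 to 5 kb.

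The domains of chromosomes 6 and 8 stood apart in H2A.Z AP3. The chromosomes are grouped for their high H2A.Z AP3 in these same lists, so the intervals describe them and do not test the difference. These chromosomes held 49 of the broad domains, and 41 of them held H2A.Z AP3 (83.7%, 71.0 to 91.5), against 215 of 468 on the other autosomes (45.9%, 41.5 to 50.5). Taken alone, chromosome 6 had 91.7% (74.2 to 97.7) and chromosome 8 had 76.0% (56.6 to 88.5). The interval of chromosome 8 overlaps that of chromosome 19, at 66.7% (45.4 to 82.8). H2A.Z AP3 covered 8.51% of domain sequence on chromosome 6 and 5.33% on chromosome 8, against 1.37% on the other autosomes together, where the highest single values were 2.91% on chromosome 19 and 2.56% on chromosome 16. H2A.Z WT was also higher there, at 31.0% and 29.6% against 20.4%, although chromosome 16 reached 30.8%. At the other end, H2A.Z AP3 was called in 1 of 13 domains of chromosome 18, that of Rax, an eye-field homeobox gene, and in 0.0669% of the sequence of these domains, while H2A.Z WT covered 18.4% of it. Without chromosomes 6 and 8, 16.9% of H2A.Z WT regions of broad domains and 25.2% of those of 1 to 5 kb domains overlapped H2A.Z AP3, so the difference between length classes was kept. On chromosomes 6 and 8 these shares were 42.0% and 53.3%, so the higher H2A.Z AP3 there was not particular to broad domains. The number of copies of these chromosomes in each line was not tested.

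The longest domains were Hox clusters. The HoxB domain at chr11:96112801-96219725 was 106925 bp long, spanned the starts of Hoxb2 to Hoxb9, and held 25 H2A.Z WT regions over 8725 bp and 3 H2A.Z AP3 regions over 250 bp. The HoxC domain at chr15:102752551-102851075 was 98525 bp long, held the starts of 8 genes from Hoxc4 to Hoxc12, and had 20 H2A.Z WT regions over 6925 bp and 3 H2A.Z AP3 regions over 375 bp. The HoxD domain at chr2:74491876-74542750 was 50875 bp long, took in Evx2 and Hoxd8 to Hoxd13, and had 19 H2A.Z WT regions over 7800 bp and 2 H2A.Z AP3 regions over 450 bp. These 3 clusters thus had 7.03% to 15.3% of their sequence under H2A.Z WT and 0.234% to 0.885% under H2A.Z AP3.

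The HoxA cluster on chromosome 6 differed from the others. Its larger domain at chr6:52148701-52204525, 55825 bp with starts from Hoxa3 to Hoxa11, held 24 H2A.Z WT regions over 19775 bp (35.4%) and 18 H2A.Z AP3 regions over 5175 bp (9.27%), the most H2A.Z AP3 bases of any broad domain. The next domain at chr6:52110726-52146325, 35600 bp with Hoxa2, Hoxa3 and Hoxa4 starts, held 13 H2A.Z WT regions over 5550 bp and 7 H2A.Z AP3 regions over 1600 bp. The sequences printed above come from HoxB, HoxC and HoxA and have 17, 17 and 20 CpG in 150 bases. Each was picked for the most CpG within the H2A.Z WT regions of its domain and outside exons, so these counts do not compare the clusters. Over their whole length the HoxA domain had 33.3 CpG per kb, HoxD 34.2, HoxB 25.6 and HoxC 21.6. HoxD thus matched HoxA in CpG density and had less H2A.Z of both forms. All HoxA domains are on a chromosome where H2A.Z AP3 was called more often throughout, and the cluster and its chromosome cannot be told apart.

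The other 5 of the 10 longest domains held the starts of 1 or 2 genes, or of none in the case of that near Nr2f2, and little H2A.Z AP3. Hand2, a bHLH factor of heart and limb, lay in 35150 bp with 14 H2A.Z WT regions over 4350 bp and 2 H2A.Z AP3 regions over 350 bp. Neurod2, a neuronal bHLH factor, lay in 28575 bp with 8 H2A.Z WT regions over 2275 bp and 1 H2A.Z AP3 region of 275 bp. Lhx2, a LIM homeobox gene of the forebrain and eye, lay in 26200 bp with 6 H2A.Z WT regions over 4525 bp and 1 H2A.Z AP3 region of 100 bp. The domain near Nr2f2 had 5 H2A.Z WT regions over 1975 bp and no H2A.Z AP3. Nr2e1, the receptor TLX of neural stem cells, shared 25350 bp with Ostm1, and the domain held 7 H2A.Z WT regions over 2300 bp and 1 H2A.Z AP3 region of 400 bp. In the Lhx2 and Nr2e1 domains the H2A.Z AP3 region lay outside the inner 50%, and in the Neurod2 domain inside it, at 14075 bp from the lower-coordinate end.

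**Figure D5:**
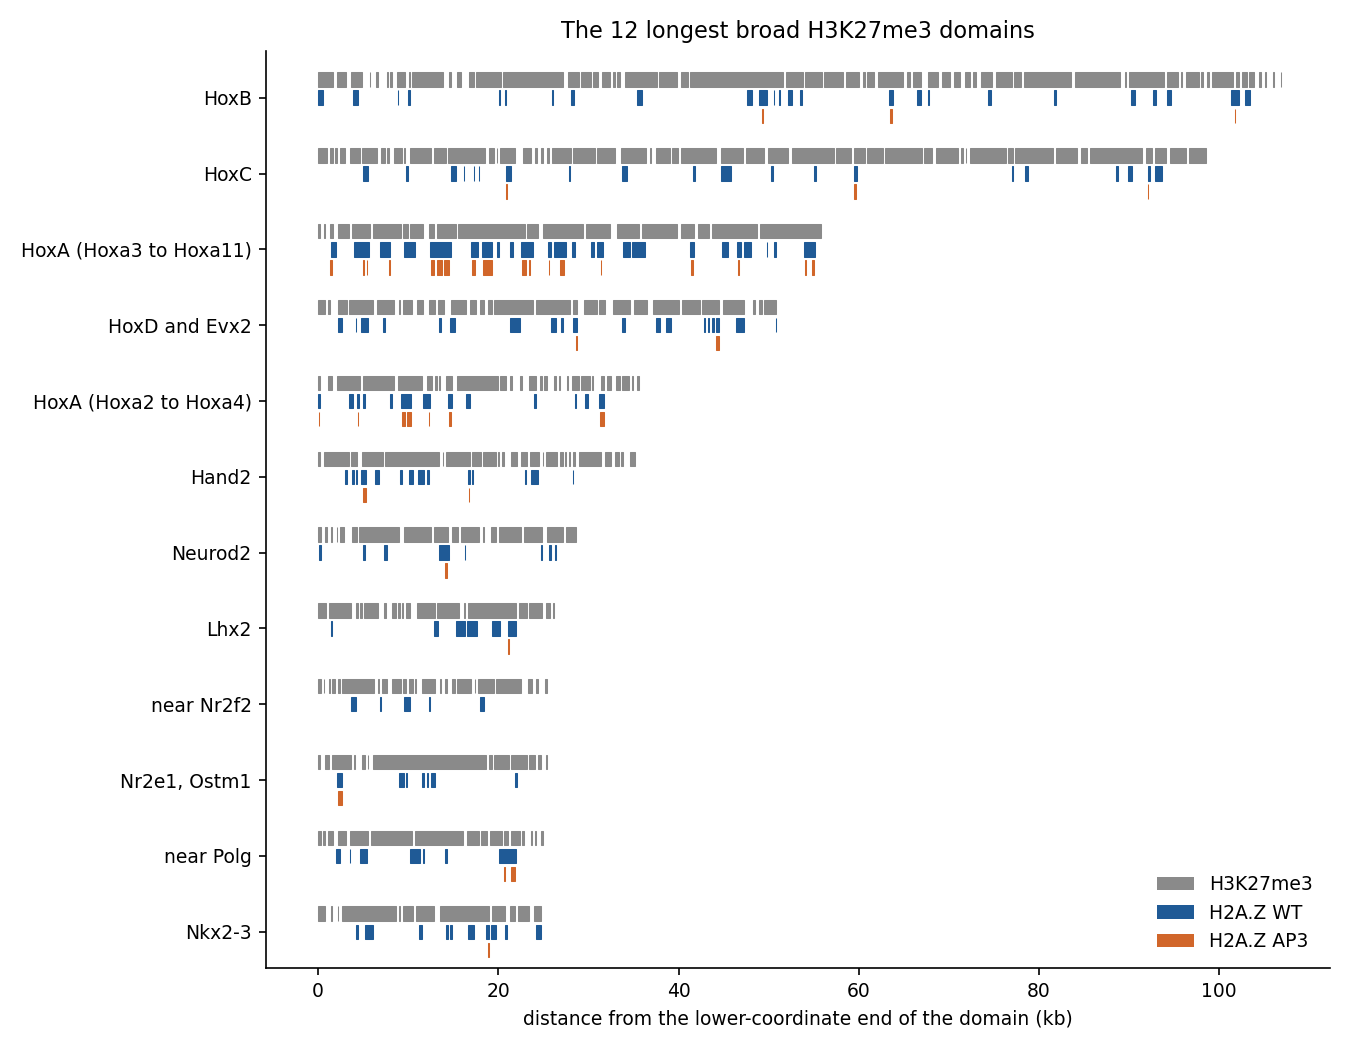
Regions called in the 12 longest broad domains, drawn to scale by distance in kb from the lower-coordinate end, with H3K27me3 in grey, H2A.Z WT in blue and H2A.Z AP3 in orange, each with a thin outline so that the shortest show. H2A.Z WT forms separate islands along the H3K27me3 stretches, and the HoxA domains carry most of the H2A.Z AP3 regions, 18 and 7.

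A few domains were mostly under H2A.Z WT. The highest share was 72.8% in a domain of 5325 bp at chr3:93246701-93252025, over the body of Tchh, a structural protein gene of hair follicles, whose start lay 449 bp away. It had 66.5 CpG per kb, the highest density of all 518 domains, and 2 H2A.Z AP3 regions over 1125 bp. Next came the domains of Kif26b (60.5%), the blood regulator Gata2 (57.5%), Plec (56.4%) and Rgl3 (55.8%). Of these, the Gata2 domain was the only one above 10 kb, with 8 H2A.Z WT regions over 8775 bp and 4 H2A.Z AP3 regions over 675 bp in 15250 bp. All 5 held H2A.Z AP3, from 25 bp in the Rgl3 domain to 1125 bp at Tchh.

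The most H2A.Z AP3 was in domains of chromosomes 6 and 8 alone. After HoxA, with 5175 bp, came the domain of Hsf4 and Nol3 with 2750 bp, that of Tril and Gm16499 with 2525 bp, Emx1 with 2200 bp and Evx1 with 1750 bp. In the Tril domain of 5150 bp, H2A.Z WT covered 53.9% and H2A.Z AP3 49.0%, so the mutant was called over nearly as much sequence as the wild type. In the domain of Emx1, a homeobox gene of the cortex, H2A.Z AP3 had 6 regions and H2A.Z WT 5, over 2200 and 4975 bp. Outside chromosomes 6 and 8 the most H2A.Z AP3 was at Tbx1, a T-box gene of the pharyngeal arches, with 1375 bp in 4 regions beside 5725 bp of H2A.Z WT, followed by the domains of Gm1337 with 1200 bp, S1pr5 with 1175 bp and, with 1125 bp each, Nrp2 and the domain near Tchh. The domains of Gm1337, S1pr5 and Nrp2 were named after their values were seen.

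The longest domains without any H2A.Z AP3 region, after that near Nr2f2, held Uncx, Pax7, Pax2 and Onecut1, all genes for transcription factors. Their H2A.Z WT content was wide apart. The Pax7 domain, 23650 bp long, had 3 H2A.Z WT regions over 550 bp (2.33%), the Uncx domain 5 over 2975 bp (12.1%), the Onecut1 domain 9 over 4725 bp (21.0%) and the Pax2 domain 10 over 5225 bp (22.6%). The Pax2 and Onecut1 domains thus had about the median H2A.Z WT coverage of all broad domains, 22.2%, and no H2A.Z AP3 at the 1e-9 threshold. The Onecut1 domain held 2 H2A.Z AP3 regions in the stricter list only.

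The 6 broad domains without H2A.Z WT also had no H2A.Z AP3, in the stricter lists as well. The longest, 14975 bp at chr2:116373951-116388925, lay 315502 bp from the nearest coding start, that of Tmco5, and had 1.47 CpG per kb, the lowest of all 518 domains, although 83.3% of it was called as H3K27me3. The domains at Lats2, a kinase of the Hippo pathway, and at Bmi1, a subunit of PRC1, were of 7825 and 6650 bp, held a coding start, and had 30.7 and 16.4 CpG per kb. Sdc3, with 31.3 CpG per kb, and the domains near Prickle1 and Agap2, with 17.9 and 31.6, made up the rest. H3K27me3 filled 29.7% of the Lats2 and 45.1% of the Bmi1 domain, below the median of 72.9%, and 50.6% to 61.0% of the other 3. With the Lats2 window of 23 CpG printed above, dense CpG was present in a domain where no H2A.Z was called. The other domain with a Polycomb gene, that of Cbx8, was of 7350 bp with 90.8% H3K27me3 and a single H2A.Z WT region of 100 bp.

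Relative to its own level, H2A.Z AP3 differed more between domains of different gene families than H2A.Z WT did, though on few bases. H2A.Z WT covered from 14.1% of the Hox domains to 31.7% of the hedgehog domains among the developmental lists. H2A.Z AP3 covered from 0.247% of the Zic, Gli and Sall domains to 4.05% of the T-box domains. H2A.Z AP3 bases, as a percent of H2A.Z WT bases, were 15.9 for Hox, 15.4 for forkhead, 14.5 for T-box, 11.9 for Sox and 9.25 for bHLH domains, but 2.86 for Pax, 1.54 for Wnt and 1.51 for Zic, Gli and Sall domains, beside 9.22 over all broad domains. Without chromosomes 6 and 8 the Hox value was 6.79 and that of other homeobox genes fell to 4.48 from 7.11, while forkhead kept 13.2 and T-box, Sox, Pax and Wnt domains had no member on these chromosomes. The T-box value came mostly from Tbx1. Its domain held 1375 bp of H2A.Z AP3, against 225 bp at Tbx4, 125 bp at Tbx20 and none at T. By count, H2A.Z AP3 was in 13 of 15 bHLH domains, 10 of 14 forkhead, 5 of 6 Sox and 47 of 75 other homeobox domains, and in 2 of 8 Pax and 4 of 12 Wnt domains, against 49.6% of all 518. With so few domains per family these are descriptions of this library. Taken as 1 group, the 164 domains with a developmental gene held H2A.Z AP3 in 62.2% (54.6 to 69.3), the 234 with another coding start in 44.9% (38.6 to 51.3) and the 120 with no coding start in 41.7% (33.2 to 50.6). The developmental domains were also longer, with medians of 10850, 6575 and 6600 bp in these groups. The H2A.Z AP3 bases came to 8.91%, 9.09% and 10.4% of the H2A.Z WT bases. Without chromosomes 6 and 8 they came to 6.21%, 6.40% and 8.60%. Per H2A.Z WT base the 2 groups with a coding start were thus close, and the domains with no coding start were higher.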

How the data were processed

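Enriched regions of H3K27me3 and of both H2A.Z forms (1 ChIP-Seq library each) were taken as deposited by the authors, as start and end coordinates on mm9 and with no counts, heights or scores, so read depth and its precision were unknown. Per the labels and the study's methods, the authors aligned single-end reads with Bowtie 0.12.3 (up to 2 mismatches), extended them to 200 bp, counted them in 25-bp bins and called bins by a Poisson threshold with at least 5 fold over input. Such calls can split wide enrichment into several regions. The submitters' processing notes also name bedtools. The 1e-9 lists were the main ones and the 1e-12 lists an alternative.

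An H2A.Z region belonged to a domain when its midpoint lay in it, and covered bases were clipped to the domain. Start sites and exons came from GENCODE vM1, gene lists from symbol patterns. Sequence was read from NCBIM37 (mm9). Python 3.11.15, NumPy 2.4.6, SciPy 1.17.1, Matplotlib 3.10.9, pysam 0.24.0 and samtools 1.23.1 were used, and interval counting was tested on simulated regions. No test was made, because each group is 1 library. Alternatives changed the thresholds, gap, minimum length, chromosomes and overlap rule.

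Named domains were the 10 longest, the 5 with the highest H2A.Z WT share, the 5 with most H2A.Z AP3 bases, the 5 longest without H2A.Z AP3, those without H2A.Z WT and those at the length limit. The members and lists were chosen with earlier results of these data known.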

Additional observations from a re-analysis of the deposited data

Results flagged for a closer look

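The lists at the stricter threshold of 1e-12, which serve here only as an alternative to the 1e-9 lists, hold regions that the latter lack. In the broad domains, 54 of the 293 H2A.Z AP3 regions of the stricter list share no base with the 1e-9 list (18.4%, 14.4 to 23.3), and they lie in 48 domains. For H2A.Z WT this was so for 45 of 1736 regions (2.59%, 1.94 to 3.45), in 39 domains. Over the whole stricter lists the shares were 23.4% for H2A.Z AP3 and 8.05% for H2A.Z WT. Of the 261 broad domains without an H2A.Z AP3 region, 27 hold H2A.Z AP3 in the stricter list only. Regions at a stricter threshold would ordinarily lie within those at a looser one, and the cause was not tested.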

How the results depend on the processing

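No paired analysis was possible because each group is 1 library and no result comes from a test, and for the same reason no library could be left out. A share counts here as moved when it leaves the 95% Wilson interval of its reported value, taken over 25-bp bins for covered sequence, which makes small shifts count. Of 130 recomputed values, 62 stayed within it, or within 1.5 times for the count of domains, and 68 moved. No share of regions in the inner 50% went below 50%, though at 10 kb or more the intervals of both forms include it, H2A.Z WT coverage stayed lower in gaps than in marked sequence under all 9 alternatives, and the share of H2A.Z WT sequence also under H2A.Z AP3 stayed lower in broad than in shorter domains under all 9.

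The count of domains went from 518 to 310 with gaps of up to 500 bp, 813 at 4 kb or more and 151 at 10 kb or more. It was 358 with the stricter H3K27me3 list and 739 with gaps of up to 2 kb, both within 1.5 times. With gaps of up to 500 bp, 43.9% of domains held H2A.Z AP3 and 66.1% a coding start, H2A.Z WT covered 22.9%, and 55.4% of H2A.Z WT and 56.7% of H2A.Z AP3 regions were in the inner 50%. With gaps of up to 2 kb, 97.0% held H2A.Z WT, which covered 19.8%. At 4 kb or more H2A.Z WT covered 22.98% and H2A.Z AP3 2.29%, and 60.8% of H2A.Z WT regions were inner. At 10 kb or more, 62.9% held H2A.Z AP3 and 87.4% a coding start, coverage was 18.8% and 1.63%, 52.5% and 56.4% of the regions were inner, and 17.5% of H2A.Z WT regions overlapped H2A.Z AP3. With the stricter H3K27me3 list coverage was 21.8% and 1.87%. With the stricter H2A.Z lists 39.0% of domains held H2A.Z AP3, coverage was 17.6% and 1.30%, and 15.2% of H2A.Z WT regions overlapped H2A.Z AP3. Without chromosomes 6 and 8 these were 20.4%, 1.37% and 16.9%. An inner part of 60% of the domain took in 68.5% and 71.4% of the regions.

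The share of H2A.Z WT sequence also under H2A.Z AP3, in broad against shorter domains, was 8.33% against 12.9% with the stricter H3K27me3 list, 7.09% against 10.3% with the stricter H2A.Z lists, 8.61% against 12.99% with gaps of up to 500 bp, 9.60% against 12.9998% with gaps of up to 2 kb, 9.65% against 13.8% with 4 kb and 8.42% against 12.5% with 10 kb as the limit between them, and 6.40% against 10.1% without chromosomes 6 and 8. Leaving out the 12 domains with a Hox start, an alternative chosen after seeing the data, gave 8.47% for broad domains and an H2A.Z WT coverage of 22.2%. The overlap rule and leaving out chromosome X moved no value.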
